A study of Arabidopsis thaliana with 8 samples.

Results

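Immunoprecipitation with an antibody to the Myc epitope recovers some DNA even when the plant carries no Myc-tagged protein, and the 4 libraries that measure this background in Arabidopsis thaliana were described here. They were 2 libraries of Myc ChIP from WT seedlings (WT ChIP), chosen by their sample names, and 2 libraries of chromatin from the same kind of plants before precipitation (WT input), out of 8 libraries in all. The sample names of the WT plants give 35S-SUC2, a name that joins the 35S promoter and the sucrose transporter gene SUC2, while their genotype label gives WT. The other 4 libraries were Myc ChIP and input, 2 of each, from the proMBD7::gMBD7:4xMYC transgenic, in which the MBD7 promoter drives a genomic MBD7 construct with 4 Myc tags (MBD7 ChIP and MBD7 input). MBD7 belongs to the family of proteins with a methyl-CpG-binding domain. All plants were 14-day-old seedlings grown at 23 °C with 16 h of light. Per the labels, the antibody came from Invitrogen in WT ChIP and from Millipore in MBD7 ChIP, although the protocol text names Invitrogen alone, so a difference between the 2 ChIP groups cannot be told apart from one between antibodies.

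Chromatin precipitated from plants without an epitope shows which DNA is recovered without a target, and it is the usual control against which a tagged protein's map is read. In Arabidopsis the DNA present in most copies is the centromeric satellite and the 45S ribosomal DNA of chromosomes 2 and 4, and the reference assembly holds only a small part of either. Reads from all the copies in the cell then pile up on the few copies in the assembly. Around each centromere lies the pericentromere, rich in transposable elements and packed as heterochromatin, whereas the arms hold most protein-coding genes.

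The count windows are 1000 bp long and start at intervals of 500 bp on the 5 chromosomes of TAIR10, so most reads entered 2 windows. WT ChIP was the shallowest group, with 7450486 and 4971029 counts, against 31459707 and 24679699 in WT input. The MBD7 libraries held between 19224696 and 26739116 counts. The median window held 4 and 3 counts in WT ChIP, against 61 and 51 in WT input. Differences of a few counts in a single window of WT ChIP were therefore not detectable, and most of what follows concerns classes of windows or DNA of high depth. Groups were compared with edgeR's quasi-likelihood test in a single fit of all 8 libraries, with Benjamini-Hochberg adjustment at 0.05 over the 232963 windows or 37898 genes tested. Fold changes are WT ChIP over WT input after TMM scaling, which takes the typical window as unchanged and gave a median log2 fold change of -0.09 over all windows. With library size alone as the scale the median was -1.74. A positive fold change after TMM scaling says only that DNA was recovered better than the typical window. Shares of all counts need no such scale and are given beside the fold changes.

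The precipitation without a target recovered above all the most repeated DNA of the genome. Copy-rich windows, those whose input exceeded 10 times the median, numbered 1953 of 238296. They held 77.8% and 76.2% of all counts in WT ChIP, against 42.8% and 39.0% in WT input. Both ChIP libraries lay far above both inputs, and the difference of the means, 36.1 percentage points, was larger than the spread between replicates (SD 1.19 and 2.69 percentage points, n = 2 each). With 2 libraries against 2, an exact permutation test cannot go below p = 0.33, so no p is given for shares. The gain lay in the 2 Mb around each centromere, where copy-rich windows held 75.3% of WT ChIP counts, against 38.8% of WT input counts (means). The 578 copy-rich windows elsewhere held a smaller share in WT ChIP, 1.73% against 2.11%. The concentration was extreme, and 50% of WT ChIP counts lay in 30 and 31 of 119149 windows that do not overlap, against 3472 and 5156 windows in WT input.

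The deepest class was the main recipient. Windows whose input exceeded 100 times the median numbered 202, and they held 71.0% and 69.6% of WT ChIP counts, against 36.7% and 32.6% of WT input counts. Copy-rich windows of 10 to 100 times the median held 6.72% of WT ChIP counts, against 6.21% of WT input counts (means, SD 0.215 and 0.196 percentage points, n = 2 each). The remaining pericentromere held 12.3% in WT ChIP, against 22.7% in WT input (SD 0.0471 and 1.04 percentage points, n = 2 each). The remaining arms held 10.7% in WT ChIP, against 36.4% in WT input (SD 1.14 and 1.66 percentage points, n = 2 each). Both compartments outside the copy-rich windows thus held a smaller share after precipitation.

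**Figure D1:**
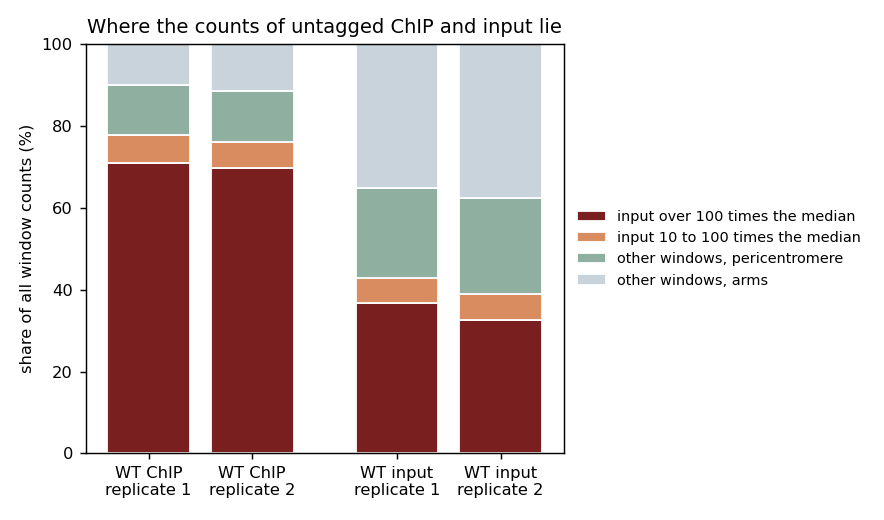
Share of all window counts (%, y axis) in 4 classes that place each window once, for each WT ChIP and WT input library (x axis). Windows with an input over 100 times the median hold 71.0% and 69.6% of the WT ChIP libraries and 36.7% and 32.6% of the WT input libraries.

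The 202 deepest windows formed 8 blocks, all of them in the pericentromere, and every one of the 202 passed the test as higher in WT ChIP. Among all tested windows 5.13% passed as higher (11960) and 0.456% as lower (1063), numbers that were 5952 and 293 without WT ChIP replicate 1. The largest block of each chromosome held together 66.9% and 65.9% of WT ChIP counts, against 34.3% and 30.5% of WT input counts. On chromosome 4, the block at 3950001 to 4011500 alone held 18.4% and 17.5% of WT ChIP counts, against 8.63% and 7.71% of WT input counts. On chromosome 2, the block at 3605501 to 3628500 held 17.7% and 16.8% of WT ChIP counts, against 8.47% and 7.73% of WT input counts. The largest blocks of chromosomes 1, 3 and 5 lie at 15081501 to 15087000, 13586501 to 13593500 and 11701501 to 11737000. Their median log2 fold changes were 2.57, 2.57 and 2.61, close to the 2.89 of the chromosome 4 block and the 2.70 of the chromosome 2 block. The 5 largest blocks thus behaved much alike.

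The smaller blocks did not. The block at 14192501 to 14205000 of chromosome 3 carries AT3G00660 and AT3G06365, annotated as RNA genes, and it was recovered best of the 8. It held 2.09% and 1.77% of WT ChIP counts, against 0.603% and 0.610% of WT input counts, with a median log2 fold change of 3.36. At 11184501 to 11189500 of chromosome 5, a block held 0.865% and 0.943% of WT ChIP counts, against 0.995% and 0.862% of WT input counts. The groups overlap there, and its median log2 fold change of 1.60 was the lowest of the 8. At 3054501 to 3062000 of chromosome 4, the values were 1.08% and 0.941% in WT ChIP, against 0.851% and 0.664% in WT input, with a median log2 fold change of 2.05. The ratio of the shares, WT ChIP over WT input by replicate number, was 3.47 and 2.91 in the chromosome 3 block, 1.26 and 1.42 in the chromosome 4 block and 0.869 and 1.09 in the chromosome 5 block, so these 3 blocks differed by more than their replicates did.

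How recovery varied with depth was followed in bins set by the MBD7 inputs alone, so that the WT libraries played no part in choosing them. Windows at 1 to 1.25 times the median had a median log2 fold change of -0.24. It was 0.07 at 2 to 3 times, 0.71 at 3 to 5 times, 0.96 at 5 to 10 times and 1.00 at 10 to 30 times. Above that it reached 2.25 at 30 to 100 times, 2.80 at 100 to 300 times and 2.62 at 300 to 1000 times. The share of windows called higher was 1.11% at 1 to 1.25 times, 44.8% at 3 to 5 times and 100% above 100 times. Power to call a window also grows with its depth. The climb began at a lower depth in the pericentromere than in the arms. In the pericentromere the medians were 0.02 at 1 to 1.25 times, 0.56 at 2 to 3 times and 0.82 at 3 to 5 times. In the arms they did not climb at first, with -0.30 at 1 to 1.25 times, -0.34 at 1.5 to 2 times and -0.27 at 2 to 3 times, and then were 0.05 at 3 to 5 times and 0.48 at 5 to 10 times. At the thin end, windows of 0.25 to 0.5 times the median had 0.16, above that of windows at the median.

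**Figure D2:**
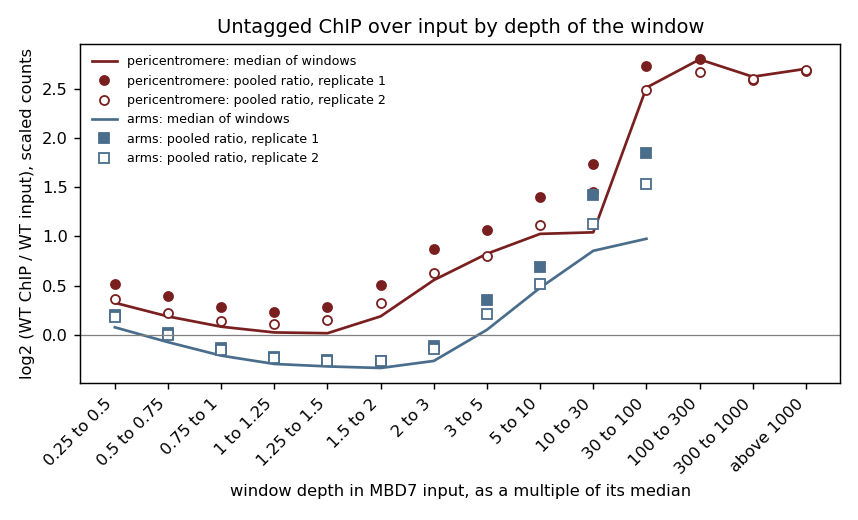
Log2 ratio of scaled counts in WT ChIP over WT input (y axis) for windows grouped by their depth in MBD7 input (x axis, multiples of the median), in the pericentromere and the arms. Lines join the medians of the windows' fold changes and symbols give the pooled ratio of each replicate pair; the medians climb from -0.30 in arms and 0.02 in the pericentromere at 1 to 1.25 times the median to above 2.5 in the deepest pericentromeric bins.

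Position along the chromosome followed the same order. The pericentromere as a whole held 89.3% and 87.7% of WT ChIP counts, against 63.9% and 61.6% of WT input counts. The 2 Mb around each centromere (the core) held 82.9% and 81.1%, against 50.2% and 47.0%. Among windows called higher, 86.0% lay in the pericentromere and 58.4% in the core, which contain 27.2% and 8.27% of the windows tested. Outside copy-rich windows, 8893 of 61541 pericentromeric windows passed as higher (14.5%) and 105 as lower (0.171%), and the median of their log2 fold changes was 0.31. In the arms 1590 of 169469 passed as higher (0.938%) and 958 as lower (0.565%), and their median was -0.22. These medians stand above and below that of all windows. As shares of all counts both classes were lower in WT ChIP, as given above. As shares of the counts outside copy-rich windows, the pericentromere held 55.2% and 51.6% in WT ChIP, against 38.4% and 38.4% in WT input.

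Without the copy-rich windows, recovery declined with distance from the deepest input window of each chromosome, taken in bins of 0.25 Mb. The median of the bins' log2 fold changes was 0.81 within 0.5 Mb, 0.62 at 0.5 to 1 Mb and 0.20 at 1 to 2 Mb. It was -0.01 at 2 to 3 Mb, -0.17 at 3 to 5 Mb and -0.23 beyond 5 Mb. Bins within 0.5 Mb ranged between 0.49 and 1.94, and bins beyond 5 Mb between -0.42 and 0.08, so these ranges do not overlap. All 5 chromosomes carried a rise of this kind. Their medians over all windows lay between -0.14 on chromosome 1 and -0.03 on chromosome 4, and between 4.67% and 6.61% of their windows passed as higher. The knob of chromosome 4, a heterochromatic block in the short arm, had a median of 0.34 with 228 of 1367 windows higher and 0 lower (edgeR). Those higher were 16.7%, close to the 16.2% of the whole pericentromere, whose bounds take in the knob. The knob held 0.291% and 0.294% of WT ChIP counts, against 0.553% and 0.593% of WT input counts.

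**Figure D3:**
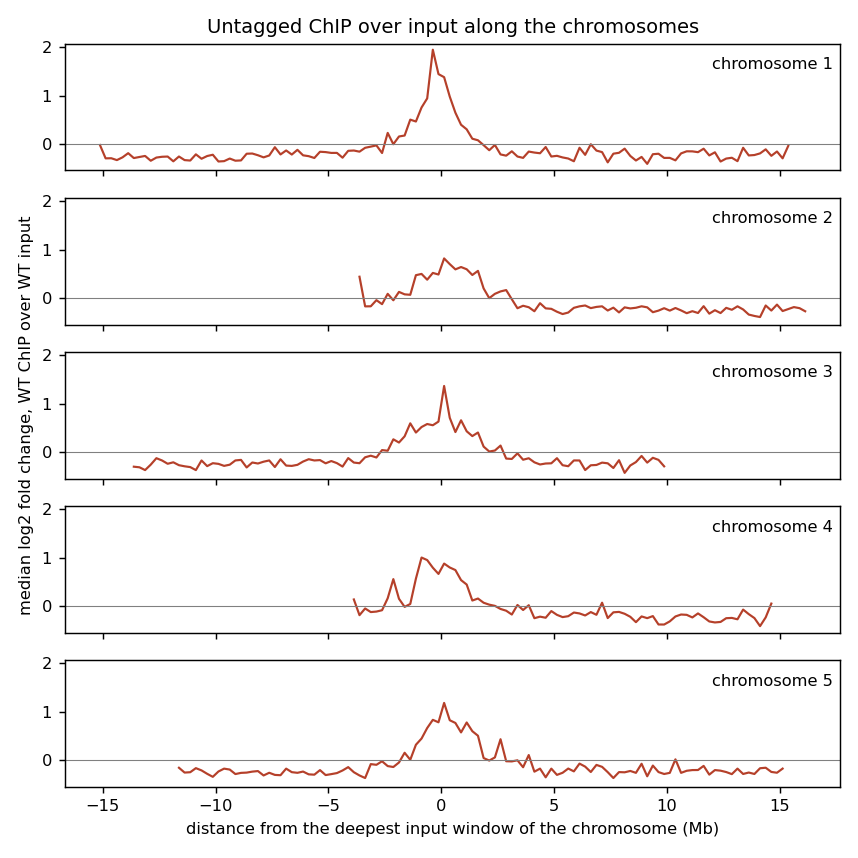
Median log2 fold change of WT ChIP over WT input in bins of 0.25 Mb (y axis) against distance from the deepest input window (x axis, Mb), for chromosomes 1 to 5 without copy-rich windows. Bins within 0.5 Mb lie between 0.49 and 1.94 and bins beyond 5 Mb between -0.42 and 0.08.

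Recovery differed between classes of windows within each compartment, with distance from the centromere not held fixed. Windows were classed as protein-coding, pseudogene (which in this annotation takes in transposable element genes), RNA gene or intergenic, in that order. Intergenic means only that no annotated gene overlaps the window, so repeats without a gene record can fall in that class. Outside copy-rich DNA, pericentromeric intergenic windows had the highest median log2 fold change, 0.64, with 4040 of 16707 higher (24.2%, against 5.13% of all windows). Pericentromeric pseudogene windows followed with 0.47 and 4336 of 22465 higher (19.3%). RNA gene windows there had 0.17, with 56 of 1448 higher (3.87%), below the share over all windows. Pericentromeric protein-coding windows had -0.09, with 461 of 20921 higher (2.20%) and 82 lower (0.392%, against 0.456% of all windows). In the arms the order began with intergenic windows at 0.17, with 601 of 23264 higher (2.58%, below the share over all windows) and 11 lower (0.0473%). Arm RNA gene windows had 0.05 and arm pseudogene windows -0.07. Arm protein-coding windows had -0.27, with 666 of 138198 higher (0.482%) and 920 lower (0.666%). Protein-coding windows were thus lowest in both compartments. On the scale of library size alone each of these classes was lower in WT ChIP. Pericentromeric intergenic windows, the best recovered, held 4.69% of all WT ChIP counts and 6.12% of all WT input counts (SD 0.0596 and 0.187 percentage points, n = 2 each). In the arms the difference between intergenic and protein-coding windows was also present at like depth. At 1 to 1.25 times the median MBD7 input, arm intergenic windows had 0.07 and arm protein-coding windows -0.30. Other classes, and those of the pericentromere, are not compared at like depth here.

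**Figure D4:**
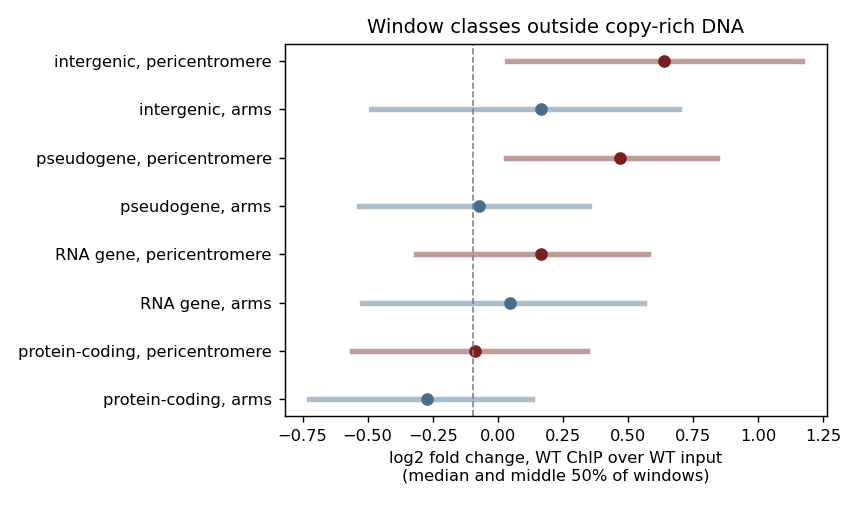
Log2 fold change of WT ChIP over WT input (x axis) for windows outside copy-rich DNA, by class and compartment; dots are medians, bars span the middle 50% of windows and the dashed line is the median of all windows, -0.09. Intergenic windows of the pericentromere stand highest at 0.64 and protein-coding windows of the arms lowest at -0.27.

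Calls of loss were of another kind. Of the 1063 windows that passed as lower, 94.3% overlapped a protein-coding gene, a class that makes up 68.5% of the windows tested. In 856 of them, 80.5%, the WT ChIP libraries held at most 3 counts together. None was copy-rich. The 5 lowest by the naming rule had 0 counts in both WT ChIP libraries. The window at 26149501 to 26150500 of chromosome 1, over AT1G69550, had 0 and 0 counts in WT ChIP, against 430 and 214 in WT input. That is at least 7.27-fold lower when the floor of 3 counts per library is used (edgeR adjusted p = 8.39e-08). It held 85 and 95 counts in MBD7 ChIP, against 223 and 110 in MBD7 input. Windows over AT1G49938, URED (a urease accessory protein gene), MAPKKK7 (a protein kinase gene) and AT1G76920 were at least 2.50-fold, 2.26-fold, 2.06-fold and 1.91-fold lower. Without WT ChIP replicate 1, those over AT1G49938 and AT1G76920 no longer passed (edgeR adjusted p = 0.0983 and 0.0631).

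The strongest single windows were mostly intergenic and near centromeres. Of the 10 windows with the highest log2 fold change by the naming rule, 9 were intergenic, 8 were pericentromeric and 6 lay on chromosome 2. None of the 10 was copy-rich. Those starting at 3611001, 3629501 and 3634001 of chromosome 2 lay within or close to its deep block at 3605501 to 3628500. The window at 19027001 to 19028000 of chromosome 1 had 62 and 107 counts in WT ChIP, against 103 and 39 in WT input. As scaled counts (cpm) that was 15.9 and 34.8 in WT ChIP, against 1.91 and 0.864 in WT input, a log2 fold change of 4.11 ± 0.34 (SE, edgeR adjusted p = 1.54e-13). It was 3.47 without WT ChIP replicate 2 and 4.80 without WT input replicate 1. The window at 3629501 to 3630500 of chromosome 2 had 79 and 99 counts in WT ChIP, against 109 and 88 in WT input, with 3.70 ± 0.22 (SE, edgeR adjusted p = 2.27e-16). In each, both ChIP libraries exceeded both inputs as scaled counts, which the naming rule requires.

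A single window of the 10 lay in a gene. It covers 1409501 to 1410500 of chromosome 5, over VPS60.2 (AT5G04850), named as a vacuolar protein sorting gene. It had 74 and 55 counts in WT ChIP, against 86 and 32 in WT input, or 19.0 and 17.9 cpm in WT ChIP against 1.59 and 0.709 cpm in WT input, with a log2 fold change of 3.96 ± 0.24 (SE, edgeR adjusted p = 2.27e-16), and 4.66 without WT input replicate 1. In the MBD7 line it had 16 and 30 counts in MBD7 ChIP, against 85 and 44 in MBD7 input. The 2 WT ChIP libraries did not always recover such a window alike. At 5099001 to 5100000 of chromosome 2 they had 178 and 43 counts, or 45.7 and 14.0 cpm, and the log2 fold change was 2.55 without replicate 1 and 4.26 without replicate 2. At 15207001 to 15208000 of chromosome 5 they had 24 and 6 counts, and without replicate 1 this window no longer passed (log2 fold change 2.49, edgeR adjusted p = 0.0908). Among windows outside copy-rich DNA, 15 in the arms and 9 in the pericentromere had 0 counts in 1 WT ChIP library and at least 20 in the other, which no window had in WT input.

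Ribosomal DNA was recovered well. The 45S units encode rRNAs of the ribosome, and the annotation holds 4 rRNA genes, 2 on chromosome 2 and 2 on chromosome 3. AT3G41768 had 7709 and 4961 counts in WT ChIP, against 16699 and 15257 in WT input, a log2 fold change of 2.60 ± 0.16 (SE, edgeR adjusted p = 6.14e-09). AT2G01010 had 8831 and 5709 counts in WT ChIP, against 19506 and 17473 in WT input, with 2.59 ± 0.16. AT2G01020 and AT3G41979 had 2.46 and 2.45. All 4 passed as higher, where 7.62% of all genes did (2889) and 1.63% passed as lower (617). Those totals were 1632 and 120 without WT input replicate 1, 1748 and 138 without WT input replicate 2, and 303 genes were lower without either MBD7 input library and 946 without WT ChIP replicate 2. By their counts the 4 rRNA genes form 2 pairs across the chromosomes, AT2G01010 with AT3G41768 and AT2G01020 with AT3G41979. AT2G01020 had 5509 and 4902 counts in WT input, and AT3G41979 had 5611 and 4985. Copies can share reads and neighbours share counts, so these are not 4 separate measurements. The 12 windows over them held 0.239% and 0.232% of all WT ChIP counts, against 0.125% and 0.143% of WT input counts, so these windows were also higher without any scaling between libraries. They cover the annotated rRNA genes alone, so these shares are not those of all ribosomal DNA. The first 10 kb of chromosome 2, where annotated ribosomal DNA lies, held 0.385% and 0.372% of WT ChIP counts, against 0.202% and 0.230% of WT input counts. Of its 20 windows 19 were copy-rich. The far end of chromosome 2 had 2 copy-rich windows and the other 8 ends had 0.

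Genes of tRNA, short and transcribed by RNA polymerase III, split by where they lie. Of 625, 624 were tested, 106 passed as higher (17.0%, against 7.62% of all genes) and 0 as lower (against 1.63%) by edgeR, with a median log2 fold change of 0.16. Dense runs were taken as 10 or more tRNA genes with starts at most 2000 bp apart, a rule set with their values known. The run between AT1G56730 and AT1G57530 on chromosome 1 holds 54 genes for tyrosine and 27 for serine tRNA, in tandem repeats. All 81 passed as higher, and their log2 fold changes ranged between 0.89 and 2.10 with a median of 1.49. Its windows had 3.09 times the median input count. AT1G57380, its highest member, had 137 and 55 counts in WT ChIP, against 403 and 289 in WT input, with 2.10 ± 0.24 (SE, edgeR adjusted p = 1.16e-05), and 1.51 without WT ChIP replicate 1. In the fit of genes, library size alone is the sum of the gene counts, which leaves out windows over no gene, and on that scale 40 of the 81 passed as higher. With the total count of all windows as the scale 0 of the 81 passed as higher (edgeR), and the log2 fold change of AT1G57380 was 0.30. Without WT ChIP replicate 1, 59 passed. The windows over the run held 0.0453% and 0.0358% of all WT ChIP counts, against 0.0491% and 0.0517% of WT input counts.

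The other run, 11 proline tRNA genes between AT1G28820 and AT1G28920, behaved otherwise. None of its 11 genes passed by edgeR, and their median log2 fold change was -0.56, at an input of 1.04 times the median. Of the 510 dispersed tRNA genes tested, 11 passed as higher (2.16%), below the share over all genes, and their median was 0.03. Without WT input replicate 1 or 2 it was 4 or 5 of them, with library size alone 3, and with total window counts 0. A group of 4 neighbours makes up much of that count: AT5G20852, AT5G20854 (ATC2), AT5G20856 and AT5G20858, all for cysteine tRNA, had log2 fold changes between 2.02 and 2.32. AT5G20858 had 33 and 14 counts in WT ChIP, against 79 and 66 in WT input, with 2.32 ± 0.38 (SE, edgeR adjusted p = 0.000316). Counts of neighbouring genes share windows, so these are not separate measurements, and without WT ChIP replicate 1 neither AT5G20852 (1.95) nor AT5G20858 (1.79) passed. AT5G20852 did not pass without WT input replicate 1 either. The set of 22 tRNA genes within the mitochondrial DNA insertion of chromosome 2 had a median of 0.62, with 14 higher, though 3 without WT input replicate 1 and 0 with library size alone or with total window counts. Over all windows that touch a tRNA gene the share was 0.134% and 0.149% in WT ChIP, against 0.305% and 0.337% in WT input. Outside copy-rich DNA the direction turned, and as a share of the counts there WT ChIP exceeded WT input by 0.0358 percentage points. These windows take in most of the serine and tyrosine run, where 74 of 81 windows passed as higher (edgeR). Over dispersed tRNA genes 10 of 1025 windows passed as higher (0.976%, against 5.13% of all windows), and the median of the 1025 was -0.09. Those windows held 0.0504% and 0.0606% of all WT ChIP counts, against 0.169% and 0.180% of WT input counts.

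**Figure D5:**
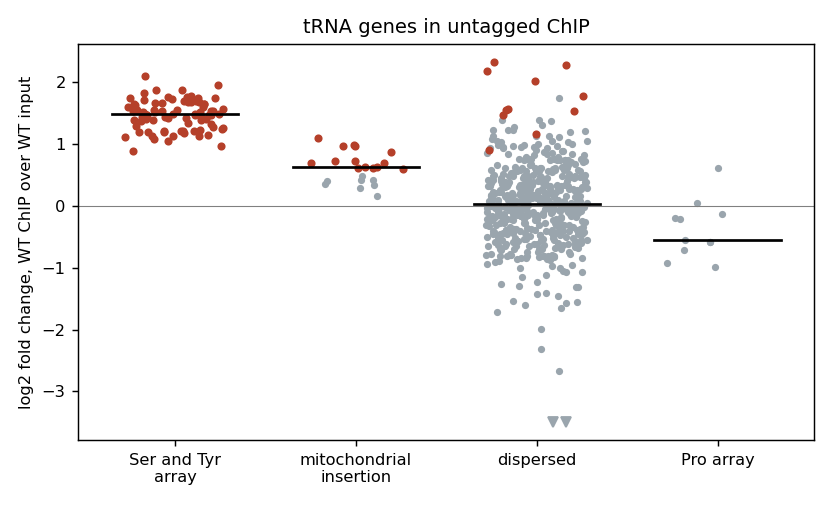
Log2 fold change of WT ChIP over WT input (y axis) for 624 tRNA genes in 4 groups (x axis); red points passed the test, grey points did not, black lines are medians and 2 genes below -3.5 are drawn as triangles at -3.5. The array of serine and tyrosine tRNA genes lies entirely above 0.89, whereas the medians of dispersed genes and of the proline array are 0.03 and -0.56.

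Small nuclear and nucleolar RNA genes stayed close to the typical gene. None of 82 snRNA genes passed by edgeR, with a median log2 fold change of -0.15. Among 287 snoRNA genes, which guide chemical changes of rRNA, 3 passed as higher and 3 as lower, against 7.62% and 1.63% of all genes. The neighbours AT1G09877 and AT1G09883 had the same 24 and 1 counts in WT ChIP, against 59 and 43 in WT input, with 1.91 ± 0.56 (SE, edgeR adjusted p = 0.0358). Only replicate 1 was high there, and without it the log2 fold change was -1.50. AT5G01495 had 3 and 2 counts in WT ChIP, against 255 and 199 in WT input, with -2.53 ± 0.50 (SE, edgeR adjusted p = 0.00212). SNOR105 had 10 and 3 counts in WT ChIP, against 33 and 25 in WT input, with 1.79 ± 0.55, and 0.89 without WT ChIP replicate 1. The calls of AT1G09877, AT1G09883 and SNOR105 were each lost when any of 5 single libraries was left out.

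Of 326 microRNA genes, 22 passed as higher (6.75%) and 2 as lower (0.613%), where 7.62% and 1.63% of all genes did. MIR5642a and MIR5642b, on chromosomes 3 and 2, lay in copy-rich DNA and had log2 fold changes of 2.74 and 2.68. MIR5642a had 9068 and 5482 counts in WT ChIP, against 18762 and 14846 in WT input. MIR5642b had 7864 and 4879 counts in WT ChIP, against 17040 and 13565 in WT input. Copies of a repeat can share reads, so these may not be separate measurements. The others named were in arm DNA of ordinary depth. MIR5653 had 58 and 96 counts in WT ChIP, against 159 and 104 in WT input, with 3.22 ± 0.38 (SE, edgeR adjusted p = 1.7e-05), and 2.63 without WT ChIP replicate 2. MIR169e, of the family that targets NF-YA transcription factor mRNAs, had 18 and 62 counts in WT ChIP, against 102 and 57 in WT input, with 3.01 ± 0.46 (SE, edgeR adjusted p = 0.00018), and 1.67 without WT ChIP replicate 2. MIR171c, of the family that targets GRAS transcription factor mRNAs, had 20 and 27 counts in WT ChIP, against 75 and 50 in WT input, with 2.56 ± 0.40. Its relative MIR171b had 1 and 0 counts in WT ChIP, against 79 and 85 in WT input. That is a ratio of 0.0950 with a 95% counting interval of 0.0024 to 0.537, and the call was lost when any of 6 single libraries was left out.

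Pseudogenes and transposable element genes carried most calls at the level of genes. Of 4843, 1883 passed as higher (38.9%, against 7.62% of all genes) and 21 as lower (0.434%, against 1.63%), with a median log2 fold change of 0.53 where all genes had -0.02. With library size alone the median of all genes was -1.11, and with total window counts it was -1.80. As a share of all counts the windows over this class held 8.90% and 8.94% in WT ChIP, against 15.5% and 16.6% in WT input. As a share of the counts outside copy-rich DNA it was 5.60 percentage points higher in WT ChIP. AT4G06700, in the largest deep block of chromosome 4, had 63525 and 40780 counts in WT ChIP, against 127376 and 93418 in WT input, with 2.87 ± 0.17 (SE, edgeR adjusted p = 6.14e-09). AT3G31161 was not copy-rich, and had 110 and 59 counts in WT ChIP, against 233 and 146 in WT input, with 2.79 ± 0.23. Others rested on a single library. AT1G43845 had 222 and 10 counts in WT ChIP, against 239 and 116 in WT input, and its log2 fold change of 3.31 was 0.03 without WT ChIP replicate 1. Likewise AT4G07747 had 187 and 10 counts in WT ChIP, against 215 and 139 in WT input, with 3.07 in full and 0.02 without that library. AT3G29805 had 2.87, and 1.53 without it. The lowest of the class, AT5G11242 and AT2G24791, had at most 4 counts in either WT ChIP library. Their calls were lost when any of 5 and any of 6 single libraries was left out, among them WT ChIP replicate 1 (edgeR adjusted p = 0.269 and 0.0694).

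Of 27444 protein-coding genes, 705 passed as higher (2.57%, against 7.62% of all genes) and 549 as lower (2.00%, against 1.63%), the median log2 fold change being -0.09. Windows over them held 29.2% and 30.4% of WT ChIP counts, against 46.1% and 47.5% of WT input counts. Much of the share in WT ChIP lay in copy-rich DNA. Outside it, arm windows over protein-coding genes held 8.06% and 9.45% of all WT ChIP counts, against 30.4% and 32.5% of WT input counts, and pericentromeric ones 1.60% and 1.77%, against 4.71% and 5.03%. AT2G08986 and AT2G07981 lie in the deep block of chromosome 2 and had 2.83 and 2.84. AT2G08986 had 811495 and 518410 counts in WT ChIP, against 1705200 and 1202550 in WT input. AT2G01023, near the ribosomal DNA of chromosome 2, had 7646 and 4731 counts in WT ChIP, against 13698 and 11651 in WT input, with 2.91 ± 0.16. AT1G39070, in the pericentromere of chromosome 1, had 3008 and 1364 counts in WT ChIP, against 5284 and 4187 in WT input, with 2.80 ± 0.22. AT1G19394 had 176 and 11 counts in WT ChIP, against 239 and 155 in WT input, and its 2.84 became 0.01 without WT ChIP replicate 1. Gene models that were lost, such as AT3G45245 with 0 and 0 counts in WT ChIP, against 98 and 80 in WT input, were at least 1.87-fold lower. Its call was lost without WT ChIP replicate 1. Among RNA genes of other kinds, AT1G09513, AT4G09675, AT5G00705 and AT1G05413 also had 0 counts in both WT ChIP libraries and were at least 2.21-fold, 1.41-fold, 1.35-fold and 1.26-fold lower. The call of AT1G09513 was lost without WT ChIP replicate 1, and the calls of the other 3 when any of the 4 WT libraries was left out. MIR773a was at least 1.13-fold lower, and for AT2G28725 the inputs of 48 and 46 counts were too low for a bound. The call of MIR773a was lost when any of 6 single libraries was left out, and that of AT2G28725 with any of the 8.

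Single genes that are often checked by PCR after ChIP mostly lay near the typical gene. With 7.62% of all genes higher and 1.63% lower, lists this short would hold few calls at that rate. None of 17 photosynthesis genes passed by edgeR, the median log2 fold change being 0.20 and the range between -0.27 and 0.74. None of 13 histone genes passed, with a median of -0.37 and a range between -1.05 and 0.30. Among 17 targets of Polycomb repression, which silences developmental regulators, SHP2 alone passed. SHP2, a MADS-box gene of fruit opening, had 19 and 11 counts in WT ChIP, against 558 and 487 in WT input, with -1.16 ± 0.27 (SE, edgeR adjusted p = 0.00721), and it no longer passed without WT ChIP replicate 2 (-0.98, edgeR adjusted p = 0.0510). FLC, the flowering repressor, had 45 and 42 counts in WT ChIP, against 723 and 604 in WT input, with 0.03 ± 0.18.

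Among 13 genes often used as references, UBQ10 passed. This polyubiquitin gene consists of ubiquitin repeats in tandem, and it had 116 and 143 counts in WT ChIP, against 1136 and 913 in WT input, with a log2 fold change of 1.00 ± 0.27 (SE, edgeR adjusted p = 0.0206). With the sum of gene counts as the scale it was -0.072 and with total window counts -0.759, and it did not pass without WT ChIP replicate 2 (0.66) or without WT input replicate 1 (1.04) or 2 (0.98). ACT2, an actin gene, had 25 and 14 counts in WT ChIP, against 471 and 420 in WT input, with -0.56 ± 0.27, and did not pass. Of the genes in the names of the plants, SUC2 had 70 and 79 counts in WT ChIP, against 1068 and 1130 in WT input, with 0.08 ± 0.19. MBD7 had 62 and 66 counts in WT ChIP, against 410 and 363 in WT input, with 1.38 ± 0.19 (SE, edgeR adjusted p = 6.11e-05) and -0.399 with total window counts as the scale. The cause was not tested.

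The mitochondrial DNA insertion on chromosome 2 differed from other repeated DNA. Its reads cannot be told apart from those of mitochondrial DNA itself. It held 0.487% and 0.596% of WT ChIP counts, against 1.10% and 1.30% of WT input counts. Relative to the typical window its median log2 fold change was 0.47, with 109 of 790 windows higher (13.8%, against 5.13% of all windows). Its 385 copy-rich windows had a median of 0.45 with 68 higher (17.7%), where all copy-rich windows had 1.38 with 1477 of 1953 higher (75.6%).

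To see which of these features are particular to untagged plants, the WT ChIP over input ratio was set against that of MBD7 ChIP over MBD7 input. These 2 comparisons share no library. Of the windows higher in WT ChIP, 91.6% (10958) were also higher in MBD7 ChIP, and they made up 26.0% of the windows higher there, where 18.1% of all windows passed as higher in MBD7 ChIP and 6.19% as lower. In the arms outside copy-rich DNA the shared windows were 946, or 59.5% of those higher in WT ChIP and 13.8% of those higher in MBD7 ChIP, where 4.06% of the windows tested there passed as higher in MBD7 ChIP. MBD7 ChIP also had 50% of its counts in 36 and 39 windows, against 9900 and 8380 in MBD7 input. The test of the difference between the ratios called 1336 windows (0.573%) with the larger ratio in WT and 15237 (6.54%) with the smaller, and among genes 2.34% with the larger and 8.86% with the smaller. In the largest deep blocks few windows were called by this test, each with the smaller ratio in WT: 1 of 10 on chromosome 1, 1 of 32 on chromosome 2, 2 of 12 on chromosome 3, 0 of 71 on chromosome 4 and 1 of 47 on chromosome 5. After TMM scaling their median differences were nonetheless all negative, -0.77, -0.56, -0.72, -0.38 and -0.65 in that order. Without scaling, the ratios of shares, ChIP over input by replicate number, overlapped between the lines on chromosome 4 alone. They were 2.14 and 2.27 there in WT, against 2.35 and 2.19 in the MBD7 line. On chromosome 2 they were 2.09 and 2.17, against 2.41 and 2.19. On chromosomes 1, 3 and 5 replicate 1 gave 1.75, 1.76 and 1.84, against 2.66, 2.54 and 2.42. Replicate 2 gave 2.12, 2.12 and 2.08, against 2.25, 2.16 and 2.16.

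In the smaller deep blocks every window was called. In the chromosome 3 block with AT3G00660, all 7 windows had a smaller ratio in WT, with a median difference of -1.54. In the chromosome 4 block at 3054501 to 3062000 all 14 did, with -1.78, and in the chromosome 5 block at 11184501 to 11189500 all 9 did, with -2.19. All 12 windows over rRNA genes had a smaller ratio in WT, with a median difference of -0.86. Pericentromeric pseudogene windows outside copy-rich DNA had -1.01, with 8693 of 22465 smaller and 29 larger. The mitochondrial insertion was divided. Its 385 copy-rich windows had a median difference of 0.87, with 214 larger and 1 smaller in WT, whereas its 405 other tested windows had -0.57, with 50 larger and 53 smaller. Unscaled, its windows that are not copy-rich held 0.133% of WT ChIP counts, against 0.294% of WT input counts (means). They held 0.134% of MBD7 ChIP counts, against 0.435% of MBD7 input counts. The ratio of these shares was thus the larger in WT, 0.453 against 0.309. The array of serine and tyrosine tRNA genes had a median difference of 0.12 with 0 of 81 called by edgeR, its log2 fold change in MBD7 ChIP being 1.31. Arm protein-coding windows outside copy-rich DNA had medians of -0.27 in WT and -0.30 in the MBD7 line. TMM scaling takes the typical window as unchanged in each line, so like medians are partly set by it. Unscaled, these windows held 8.75% of WT ChIP counts, against 31.4% of WT input counts (means). They held 7.69% of MBD7 ChIP counts, against 36.7% of MBD7 input counts. The ratio of these shares was 0.278 in WT and 0.210 in the MBD7 line.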

How the data were processed

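Chromatin of 14-day-old seedlings fixed in 1% formaldehyde and sonicated to about 500 bp was sequenced in 8 libraries, 2 per group, and groups and replicate numbers come from the sample titles. The deposited values are raw counts per window of 1000 bp every 500 bp. Per the submitters' processing notes the authors used Bowtie2, SAMtools and featureCounts with TAIR10. Tool versions and the handling of multiply mapped reads and PCR duplicates were not given in the sources used here. Copies of a repeat can share reads, and intervals cover counting error only. There were 0 columns of other samples. Chloroplast and mitochondrial chromosomes were not analysed here.

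Gene names and types came from a RefSeq table of TAIR10.1, whose coordinates are not printed. Gene counts are sums over overlapping windows, so neighbours share counts. Copy-rich windows were set by the mean of the 4 inputs. All members, lists and bounds were chosen with earlier results of these data known. The core is 2 Mb per chromosome, the insertion 3.2 to 3.6 Mb of chromosome 2 and the knob 1.6 to 2.3 Mb of chromosome 4.

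The 3 comparisons (WT ChIP against WT input, MBD7 ChIP against MBD7 input, and their difference) were contrasts of 1 fit (R 4.3.3, edgeR 4.0.16 with its filterByExpr, TMM scaling, quasi-likelihood test, two-sided, adjusted p under 0.05), tested on simulated data. All groups share 1 estimate of spread. Nothing in the labels says that replicates came from separate plants, so p-values measure only spread among these libraries, and it may be technical. Named windows and genes are the 10 highest and 5 lowest log2 fold changes among those called with a mean of at least 10 counts and groups that do not overlap, touching windows taken once. Up to 5 highest and 2 lowest called genes of each type were added with neither condition, so groups overlap in some. Where windows touched, the name went to the smaller p. The 10 highest windows outside copy-rich DNA were the same 10. All 62 genes of 5 lists were examined. Bounds against 0 counts use 3 counts per library. Alternatives were DESeq2 1.42.0 (size factors and Wald test), library size alone (the summed counts of the features tested), no filter, the WT libraries alone, thinned inputs, windows that do not overlap, no copy-rich windows, a replicate block and each library left out. Total window counts as the scale for genes were added after seeing the data. Python 3.11.15 with pandas 2.3.3 made the tables and matplotlib 3.10.9 drew the plots.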

Additional observations from a re-analysis of the deposited data

Results flagged for a closer look

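For 10 of the 15 named windows and 22 of the 43 named genes, the ratio of WT ChIP to WT input differed from that of MBD7 ChIP to MBD7 input by the test of that difference (edgeR, adjusted p under 0.05). They were named for extreme ratios in WT, and the test uses the same WT counts, so these counts say nothing about how often such windows or genes differ. Over all windows 0.573% had the larger and 6.54% the smaller ratio in WT, and over all genes 2.34% and 8.86%. The 2 ChIP groups differ in the tagged protein and in the antibody, whose parts cannot be told apart.

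The ratio was larger in WT in 5 intergenic or genic windows, by 2.20 (log2) at 19027001 of chromosome 1, 1.99 at 3092501 and 1.88 at 5099001 of chromosome 2, and 3.48 at 1409501 (VPS60.2) and 2.44 at 15207001 of chromosome 5. It was also larger at MIR5653 (1.81), MIR169e (2.23), MIR171c (1.61), AT3G31161 (1.18) and the overlapping snoRNA genes AT1G09877 and AT1G09883 (2.86 for each, with 24 and 1 counts in WT ChIP).

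The ratio was smaller in WT at the copy-rich RNA genes AT3G00660 (-1.44), AT3G06365 (-1.38) and AT2G00340 (-1.24), at AT2G01023 (-1.15), at the microRNA genes MIR5642a (-1.54) and MIR5642b (-1.52), and at the rRNA genes AT3G41768 (-1.06), AT2G01010 (-1.12), AT2G01020 (-1.13) and AT3G41979 (-1.13). At the snoRNA gene AT5G01495, with 3 and 2 counts in WT ChIP, it was -2.14.

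Where both WT ChIP libraries had 0 counts the fitted difference depends on the prior count and only the adjusted p of edgeR is given, the ratio being smaller in WT in each. It was 1.19e-08 for the window at 26149501 of chromosome 1 (AT1G69550), 0.00445 at 18486001 of chromosome 1 (AT1G49938), 0.00104 at 14765001 of chromosome 2 (URED), 0.00403 at 4413001 of chromosome 3 (MAPKKK7) and 0.0118 at 28892001 of chromosome 1 (AT1G76920). For genes it was 0.00781 (AT3G45245), 0.0256 (AT4G09675), 0.0288 (AT5G00705), 0.0314 (AT1G05413) and 0.0172 (MIR773a).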

How the results depend on the processing

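The scale between libraries moved the counts of calls most. With library size alone 1638 windows passed as higher and 193907 as lower, 2761 and 5748 in the test of the difference between lines, and 256 and 30256 genes, with medians of -1.74 over windows and -1.11 over genes. DESeq2's Wald test called 57 windows lower, and the 4 WT libraries alone called 249 genes lower. Windows that do not overlap, 116475 tested, gave 5981 higher and 533 lower, and 650 and 7670 for the difference. With 1 library left out at a time, windows higher ranged between 5952 (without WT ChIP replicate 1) and 12725, windows lower between 293 and 1309, windows of smaller ratio in WT between 8007 and 18628, of larger ratio between 937 and 1629, genes higher between 1632 (without WT input replicate 1) and 3196, and genes lower between 120 and 946. With total window counts as the scale for genes, chosen after seeing the data, 54 passed as higher and 36772 as lower, UBQ10 (AT4G05320) was -0.759 and MBD7 (AT5G59800) -0.399. UBQ10 was -0.072 with library size alone, and AT1G09877 and AT1G09883 were -1.50 without WT ChIP replicate 1 and 2.71 without WT ChIP replicate 2. Outside copy-rich windows the difference in share, WT ChIP minus WT input, was 15.1 percentage points for the pericentromere (25.8 over all windows), 0.0358 for windows over tRNA genes (-0.180), 5.60 for pseudogenes (-7.10) and 10.3 for intergenic windows (22.7). In windows that do not overlap it was 0.124 for rRNA genes (0.101 over all). Of 61 named results, 24 of 46 genes and 12 of 15 windows kept their call with each library left out. The labels do not say that replicate numbers pair libraries, and deviations of same-numbered libraries correlated between -0.00 and 0.02 over windows and genes. With the replicate number as a block, 11920 windows passed as higher and 997 as lower, and 2758 and 502 genes. The causes of these shifts were not tested. Shallow WT ChIP libraries limit single windows.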

Other observations

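In the windows recovered best by WT ChIP, the replicate inputs also differed. Of the 10 highest named windows, scaled counts were above those of replicate 2 in WT input replicate 1 in 9 and in MBD7 input replicate 1 in 9. Among 107 windows outside copy-rich DNA called with a log2 fold change above 3, the median log2 ratio of replicate 1 to replicate 2 was 0.24 in WT input and 0.40 in MBD7 input, with replicate 1 above in 74.8% and 78.5% of windows. In the 6856 windows called with fold changes between 1 and 2 on the log2 scale those medians were -0.01 and -0.01. The pattern was noticed in these data, and its cause was not tested.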
